A study of Mus musculus with 12 samples.

Results

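The genes described here are 10 p53 targets grouped under cell cycle arrest: Cdkn1a, Ccng1, Btg2, Gadd45a, Plk2, Plk3, Gtse1, Sfn, Zmat3 and Psrc1. They were taken from a fixed list of names, and all 10 were found among 21883 protein-coding genes of the RefSeq mouse gene table. A gene was counted as having a peak when the midpoint of a deposited peak lay inside the gene or within 5 kb of either end. The peaks came from chromatin immunoprecipitation and sequencing (ChIP-seq) of mouse back skin, with antibodies against p53 or against trimethylated lysine 4 of histone H3 (H3K4me3). The labels give 12 samples in 6 groups of 2: p53 in wild-type skin at T0 and 6 h, p53 in K17KO skin at T0 and 6 h, and H3K4me3 in wild-type skin at T0 and 6 h. All groups, those at T0 included, carry the ionizing radiation label, with a dose of 5 Gy and an age of 8 to 10 weeks. The labels do not say what K17KO stands for, what T0 means or whether the samples of a pair came from separate mice.

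The data analysed were 3 peak lists with 2909 peaks for p53 (read as wild type, WT, because only the other p53 list names a genotype), 1101 for K17KO p53 and 5464 for H3K4me3. None of them names a library, a time point or a control, so T0 cannot be set against 6 h, no value below has a replicate error, and genotype and list cannot be told apart. Recovered depth was low for p53, with a median of 7 fragments per WT peak (background 0.992) and 11 per K17KO peak (1.39), and higher for H3K4me3, with 148 fragments (90.7). The epidermal keratin genes Krt1, Krt10, Krt15, Krt5 and Krt14 were also looked up. H3K4me3 peaks lay at Krt1 (up to 4.84-fold), Krt10 (4.28-fold) and Krt15 (2.69-fold), and none lay within 5 kb of Krt5 or Krt14. These genes were chosen after values were seen, and 23.9% of all protein-coding genes had an H3K4me3 peak. The skin label was therefore not tested by them.

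After DNA damage p53 binds response elements made of a pair of 10-base motifs, the p53 decamers, and raises the transcription of nearby genes. The best known arrest target, Cdkn1a, encodes p21, which inhibits cyclin-dependent kinases and so holds cells before DNA replication. Others act later, before mitosis, or restrain growth through RNA turnover, and in epidermis the arrest limits the passage of damaged keratinocytes into division. H3K4me3 marks the nucleosomes beside active start sites.

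In the WT p53 list 3 of the 10 arrest targets had a peak: Cdkn1a at 6.57-fold, Ccng1 at 4.40-fold and Plk2 at 4.72-fold and 3.86-fold. The same rule called 6.74% of all protein-coding genes in that list. The arrest targets are short, with a median length of 5.56 kb against 17.2 kb for all protein-coding genes, and among genes no longer than the longest of them (30.9 kb) the share called was 3.26%. In the K17KO p53 list 0 of 10 had a peak, where 3.79% of all genes and 2.35% of the genes up to that length were called. A count of 0 among 10 genes lies near that background and is not a result about these genes. In the H3K4me3 list 5 of 10 had a peak, namely Cdkn1a, Ccng1, Plk2, Btg2 and Zmat3, against 23.9% of all genes and 20.6% of those up to the same length. All 3 genes with a WT p53 peak also had an H3K4me3 peak and no K17KO p53 peak, a combination held by 2.0% of all protein-coding genes. Among all protein-coding genes with both a WT p53 and an H3K4me3 peak, 437 lacked a K17KO p53 peak and 53 had one. The lack of a K17KO p53 peak was thus usual for such genes and is not particular to the arrest targets. Gadd45a, Plk3, Gtse1, Sfn and Psrc1 had no peak in any of the 3 lists, as did 69.4% of all protein-coding genes.

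**Figure D1:**
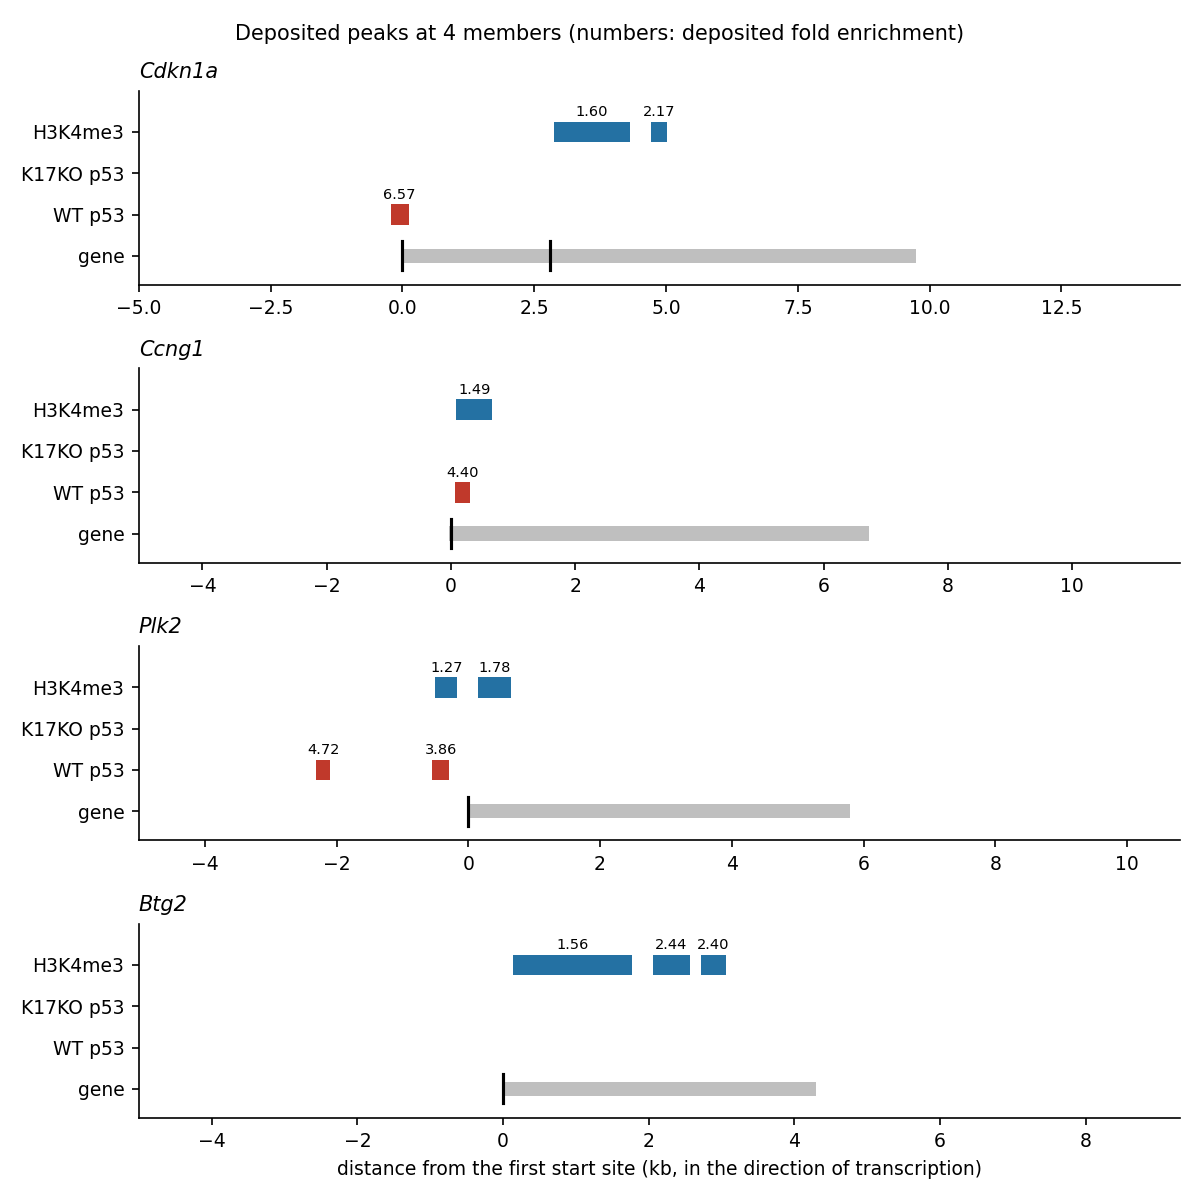
Peaks of the 3 lists at Cdkn1a, Ccng1, Plk2 and Btg2, drawn to scale by distance in kb from the upstream start site, in the direction of transcription, with the gene in grey, start sites as black ticks and the deposited fold above each peak. The WT p53 peak of Cdkn1a sits at its upstream start and the H3K4me3 peaks past its downstream start, while at Ccng1 and Plk2 a p53 and an H3K4me3 peak overlap, and Btg2 has H3K4me3 peaks alone.

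Cdkn1a (chromosome 17 from 29090979 to 29100722, mm10, plus strand) held the p53 peak with the highest fold of the group. It spanned 29090757 to 29091094 and rested on 15 fragments (exact Poisson 95% interval 8.40 to 24.7, counting error only) over a background of 1.44, with a −log10 p of 11.4 and a −log10 q of 5.74. By fold it ranked 21 of 2909 WT p53 peaks, and by p it ranked 28, so it lay in the top 0.722% and 0.963% of its list. RefSeq places starts of Cdkn1a at 29090979 and at 29093769, 2.79 kb apart. The summit lay 57 bp before the upstream start and 2.85 kb before the downstream start. As background, the best characterised p53 response elements of Cdkn1a lie in the distal promoter, kilobases before the downstream start.

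The bases under this peak carry the p53 motif and are shown for that reason. The stretch is the part of the peak that precedes the upstream start, chr17:29090757-29090978 of GRCm38.p6 (the mm10 coordinates), plus strand, from the RefSeq promoter table. Capitals mark an isolated decamer and a 20-base run of 2 abutting decamers with 1 base off the p53 consensus.
Cdkn1a, before the upstream start: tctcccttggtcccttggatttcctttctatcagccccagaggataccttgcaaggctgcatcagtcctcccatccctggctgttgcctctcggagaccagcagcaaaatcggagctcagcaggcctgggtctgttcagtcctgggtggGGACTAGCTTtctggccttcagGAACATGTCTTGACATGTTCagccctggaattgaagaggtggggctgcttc

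The 20-base run lay 51 to 32 bases before the upstream start, and its centre was 15 bp from the peak summit. The isolated decamer lay 73 to 64 bases before that start, and with the leading decamer of the run it made an exact consensus pair. The promoter table holds 32851 windows of 250 bases before to 50 after a start, with 9 of the 10 arrest targets matched (12 windows). The windows belong to 27025 genes, 17491 of them among the protein-coding genes used here, so noncoding starts are included. A 20-base run with at most 1 base off the consensus was in 29 windows, or 0.0883%, and 3 of the 9 matched targets had one: Cdkn1a, Ccng1 and Gtse1. An exact pair of decamers 0 to 13 bases apart was in 24 windows, or 0.0731%, Cdkn1a among them. Of the 29 windows with the 20-base run, 3 lay under a WT p53 peak, those of Cdkn1a, Rps27l and Gm51651, and 1 under a K17KO p53 peak, against 0.198% and 0.356% of all windows. The 20-base search was added after the Cdkn1a bases had been read. These genes are known as p53 targets, some of them through such motifs, so the share with a motif is not independent of the choice of genes. A single p53 decamer on either strand was far more common, in 8.36% of all windows. It was in 4 of the 12 windows of the matched targets, at Cdkn1a, Ccng1, Gadd45a and Gtse1.

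The H3K4me3 peaks of Cdkn1a lay elsewhere in the gene. The wider peak, 29093847 to 29095296, was 1450 bp wide, 1.60-fold over background and began 78 bp past the downstream start, with 245 fragments (215 to 278) over 152. The narrower, 29095696 to 29095991, was 2.17-fold, with 137 fragments (115 to 162) over 62.6, and ranked 176 of 5464 H3K4me3 peaks by p. The gap between the p53 peak and the nearest H3K4me3 peak was 2752 bp, so the p53 peak sat at the upstream start and the H3K4me3 signal called followed the downstream start. No K17KO p53 peak came nearer to Cdkn1a than 59.3 kb, where a 3.23-fold peak lay inside Cpne5.

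Beyond the 5 kb window a further WT p53 peak of 4.30-fold (8 fragments, 3.45 to 15.8, over 1.09) lay 12.0 kb upstream of Cdkn1a, from 29078846 to 29079102. Its midpoint was inside Trp53cor1 (29057474 to 29079126), the long noncoding RNA also called lincRNA-p21, itself a known p53 target. This peak shared 28 bp with a 2.22-fold H3K4me3 peak, and a second H3K4me3 peak of 3.17-fold lay 9.06 kb upstream of Cdkn1a.

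Ccng1 encodes cyclin G1, which recruits a phosphatase to Mdm2 and so takes part in p53 feedback as well as in arrest. It lies on chromosome 11 from 40748552 to 40755309, on the minus strand, with its RefSeq start at 40755286. The WT p53 peak spanned 40754979 to 40755213, 73 to 307 bp past the start, with 10 fragments (4.80 to 18.4) over 1.50 and a −log10 q of 1.52. It ranked 838 of 2909 by fold (top 28.8%) and 621 by p (top 21.3%), above the medians of its list but well below the Cdkn1a peak. An H3K4me3 peak from 40754624 to 40755196, 1.49-fold with 228 fragments (199 to 260) over 152, shared 218 bp with it, or 92.8% of the p53 peak.

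Because the p53 peak of Ccng1 lies wholly past the start, the promoter table does not hold the bases under it. The 250 bases before the start are shown because they carry the other 20-base run near a p53 peak (chr11:40755287-40755536, GRCm38.p6, minus strand). Capitals mark that run and the CCAAT boxes, which bind the factor NF-Y.
Ccng1, before the start: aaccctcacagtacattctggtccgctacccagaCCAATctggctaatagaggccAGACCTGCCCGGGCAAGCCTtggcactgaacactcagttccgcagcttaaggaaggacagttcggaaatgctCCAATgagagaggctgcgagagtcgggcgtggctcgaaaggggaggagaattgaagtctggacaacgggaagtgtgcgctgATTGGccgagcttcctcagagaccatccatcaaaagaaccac

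The run of Ccng1 lay 195 to 176 bases before the start, and the p53 peak ended 249 bp short of it, so motif and peak did not coincide as they did at Cdkn1a. The nearest K17KO p53 peak, 5.84-fold with 16 fragments (9.15 to 26.0) over 1.91, lay 14.5 kb from Ccng1 and 440 bp inside the end of the neighbouring gene Nudcd2. That K17KO peak ranked 49 of 1101 by p and shared 230 bp with a 1.29-fold H3K4me3 peak.

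Plk2 and Plk3 encode polo-like kinases that respond to stress and act in the cell cycle checkpoints. Plk2 (chromosome 13 from 110395044 to 110400844, plus strand) had 2 WT p53 peaks, and among the 1476 genes with a WT p53 peak 10.4% had more than 1. The stronger, 110392734 to 110392949, had its midpoint 2203 bp before the start, at 4.72-fold, with 8 fragments (3.45 to 15.8) over 0.906. The weaker, 110394496 to 110394757, had its midpoint 418 bp before the start, at 3.86-fold, with 7 fragments (2.81 to 14.4) over 1.07 and a −log10 q of 0.958. The Poisson intervals of these peaks overlap almost wholly, so the order of the pair is not resolved at this depth.

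H3K4me3 peaks stood on both sides of the Plk2 start. The peak past the start, 110395197 to 110395699, was 1.78-fold with 234 fragments (205 to 266) over 131 and ranked 182 of 5464 by p. The peak before the start, 110394544 to 110394875, was 1.27-fold with 194 fragments (168 to 223) over 152 and a −log10 q of 0.452, near the foot of its list. It shared 214 bp with the weaker p53 peak, 81.7% of that peak. Part of it falls in the promoter window of Plk2 and is the only other stretch of the matched promoters, before a start, that lies under a peak (chr13:110394794-110394875, GRCm38.p6, plus strand). None of the motifs searched was in it, and it is shown beside the Cdkn1a stretch for that contrast.
Plk2, under the H3K4me3 peak: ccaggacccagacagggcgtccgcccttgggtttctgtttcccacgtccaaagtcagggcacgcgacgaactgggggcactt

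Plk3 (chromosome 4 from 117128655 to 117133963) had no peak in its window. The nearest WT p53 peak was 106 kb away inside Eif2b3.

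**Figure D2:**
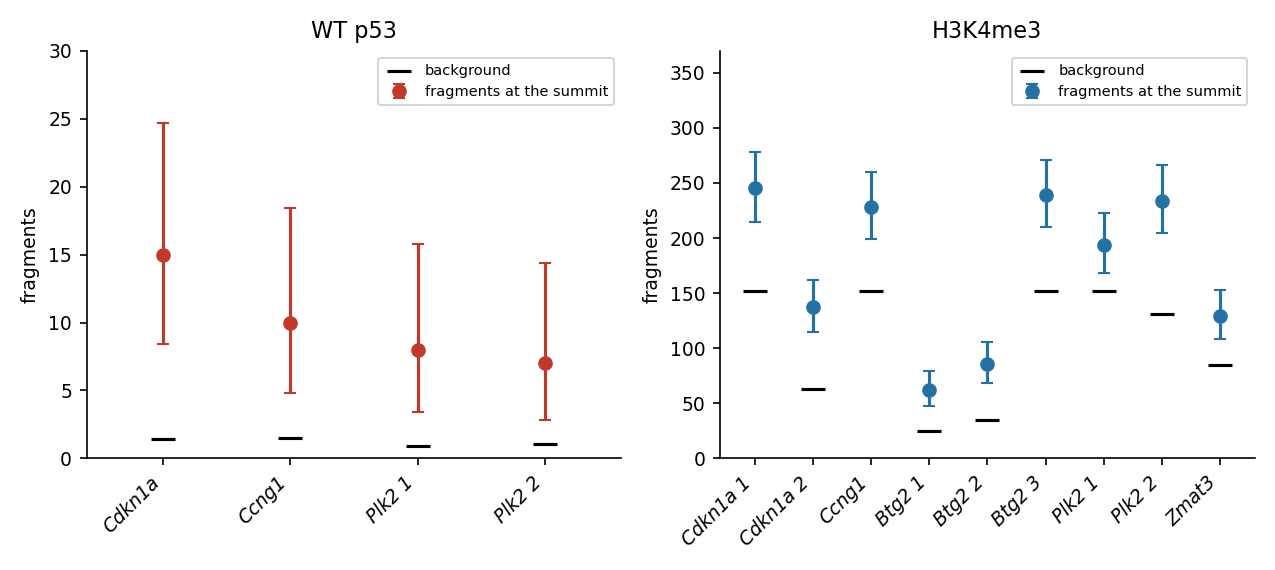
Fragments at the summit of each peak of the arrest targets in the WT p53 list (left) and the H3K4me3 list (right), with exact Poisson 95% intervals, and the background of each peak as a black bar, both on linear axes of fragments. Peaks of a gene are numbered by genome coordinate. The p53 peaks rest on 7 to 15 fragments over 0.906 to 1.50, and the H3K4me3 peaks on 62 to 245 over 25.2 to 152.

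Of the other genes that slow growth, Btg2 and Zmat3 had H3K4me3 peaks and no p53 peak. Btg2, which binds the CCR4-NOT complex and promotes the shortening of messenger RNA tails, lies on chromosome 1 from 134074865 to 134079155, on the minus strand. It held 3 H3K4me3 peaks, of 1.56-fold, 2.44-fold and 2.40-fold, in order from its start. They began 141, 2053 and 2720 bp past the start and rested on 239 (210 to 271), 86 (68.8 to 106) and 62 (47.5 to 79.5) fragments over 152, 34.6 and 25.2. Together they covered 57.9% of the gene, the largest share among the 5 arrest targets with an H3K4me3 peak. Among the 5224 genes with an H3K4me3 peak, 4.12% had 3 or more. The nearest WT p53 peak to Btg2 was 442 kb away, the farthest of the 10 genes, and the nearest K17KO p53 peak 162 kb away inside Prelp.

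Zmat3 encodes a zinc finger protein that binds RNA and acts in splicing downstream of p53. It lies on chromosome 3 from 32334792 to 32365665, and its H3K4me3 peak spanned 32364887 to 32365167, 638 bp from the gene end at the higher coordinate. That peak was 1.52-fold, with 129 fragments (108 to 153) over 84.8 and a −log10 q of 2.21. The nearest p53 peaks were 237 kb (WT) and 2172516 bp (K17KO) away.

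The H3K4me3 peaks of the arrest targets lay mostly past the start rather than over it. Of the 8 at genes with a start in the promoter table, 7 had their midpoint downstream and the Plk2 peak of 1.27-fold had it upstream. In the whole list 3346 peaks had a midpoint within 5 kb of a protein-coding start, 83.3% of them downstream, and 10.3% covered a start. Over all of these peaks, with upstream distances counted as negative, the median midpoint was 270 bp past the start. The side of the start seen at the arrest targets was thus that of most of the list. The 7 downstream midpoints lay 376 to 2889 bp past the nearest start of their gene. The list's median takes in upstream peaks, so these distances cannot be set against it. The background under these peaks was 25.2 to 152 fragments, where the list's own quartiles were 23.4 and 137. No source names the control that set it, and whether the height of the background bore on these folds was not tested.

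The 4 remaining genes, which act around mitosis, had no peak in their windows. Gtse1, a microtubule-binding protein that also moves p53 out of the nucleus, lies on chromosome 15 from 85859691 to 85876573 and was nearest to being counted. A WT p53 peak of 3.94-fold (7 fragments, 2.81 to 14.4, over 1.03) lay 8.23 kb from it inside Ttc38, and a K17KO p53 peak of 4.12-fold (11 fragments, 5.49 to 19.7, over 1.91) lay 6.41 kb from it, on the other side, inside Trmu. Its 20-base p53 run, shown for comparison with that of Cdkn1a, begins 1 base before the downstream start (chr15:85859945-85859964, GRCm38.p6, plus strand), and the WT peak ended 8.38 kb from it.
Gtse1, at the downstream start: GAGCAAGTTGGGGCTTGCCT

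Gadd45a, which binds PCNA and the mitotic kinase Cdk1, lies on chromosome 6 from 67035096 to 67037407. Its nearest WT p53 peak was 206 kb away. Its promoter held a single p53 decamer, 40 to 31 bases before the start. As background, the response element known for Gadd45a lies inside the gene, where no peak was listed.

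Sfn encodes 14-3-3 sigma, an epithelial protein that keeps Cdk1 and cyclin B out of the nucleus, and lies on chromosome 4 from 133600556 to 133602168. No H3K4me3 peak was nearer than 15.9 kb (1.86-fold, inside Gpn2), and the nearest p53 peaks were 298 kb (WT) and 285 kb (K17KO) away. Psrc1, a microtubule-binding protein of the mitotic spindle that responds to p53, lies on chromosome 3 from 108383804 to 108388231. Its nearest peaks were 419 kb (WT p53), 166 kb (K17KO p53) and 238 kb (H3K4me3) away. Its starts are 108383804 and 108383838, and it was the only one of the matched arrest targets to hold TTCGAA, a form of the cell cycle homology region through which late cell cycle genes are repressed. That motif was in 1.56% of all windows and in 2 of the 12 windows of the matched targets, overlapping ones of Psrc1. In Psrc1 it follows a CCAAT box (chr3:108383763-108383813, GRCm38.p6, plus strand), with both in capitals.
Psrc1, around the upstream start: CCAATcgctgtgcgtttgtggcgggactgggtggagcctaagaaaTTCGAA

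The other form, TTTGAA, was in 17.9% of all windows and in 0 of the 9 matched arrest targets. A CCAAT box was in 37.4% of all windows and in 8 of the 12 windows of the matched arrest targets. Those windows belong to 6 of the 9 genes, namely Btg2, Ccng1, Gadd45a, Gtse1, Psrc1 and Sfn. Both strands were searched for each motif, and within the printed stretches the only shared bases were those between a p53 decamer and the pair or run that contains it.

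**Figure D3:**
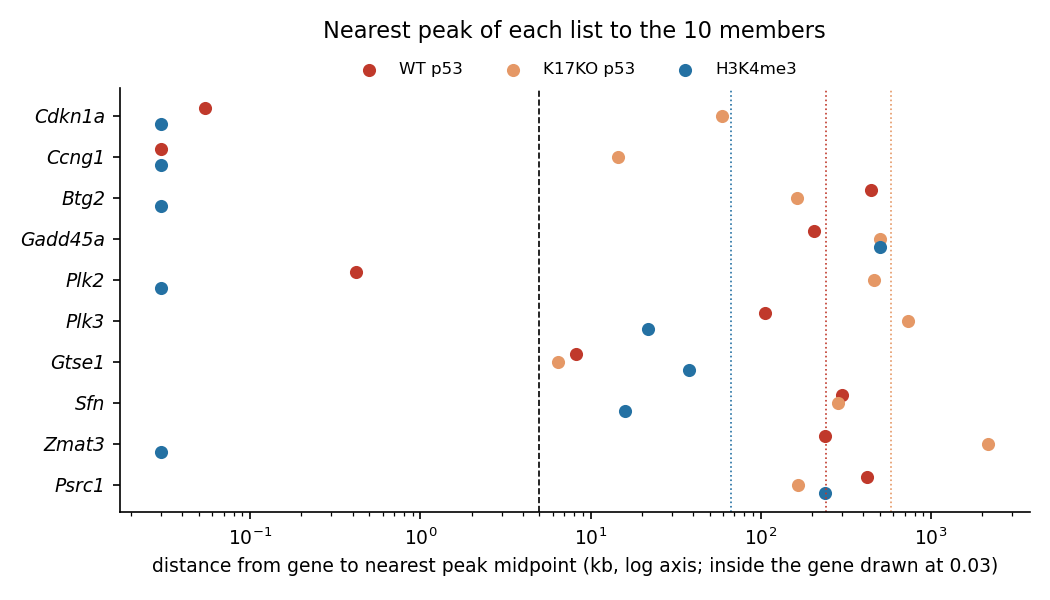
Distance in kb (log axis) from each of the 10 genes to the midpoint of the nearest peak of each list, with peaks inside the gene drawn at the left edge. The dashed line marks the 5 kb window and the dotted lines the medians over all protein-coding genes. Points left of the dashed line are Cdkn1a, Ccng1 and Plk2 for WT p53, those and Btg2 and Zmat3 for H3K4me3, and none for K17KO p53.

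Over all 10 genes the median distance to the nearest peak was 156 kb for WT p53, 226 kb for K17KO p53 and 7.97 kb for H3K4me3. Over all protein-coding genes the medians were 242, 581 and 66.8 kb. Around the 5 kb limit, the WT p53 peak farthest out but still counted was at 2203 bp (Plk2) and the nearest one not counted at 8.23 kb (Gtse1). For H3K4me3 these distances were 0.335 kb (Plk2) and 15.9 kb (Sfn), and for K17KO p53 the nearest peak not counted was at 6.41 kb (Gtse1).

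**Figure D4:**
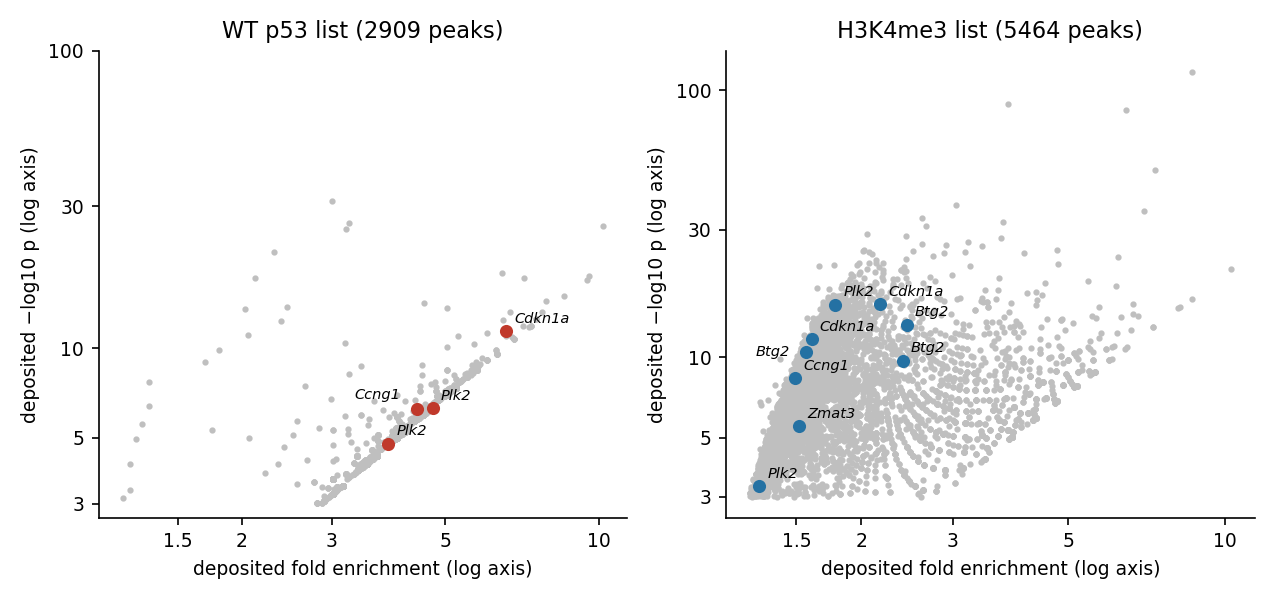
Deposited fold enrichment against deposited −log10 p (both on log axes) for every WT p53 peak (left) and H3K4me3 peak (right) in grey, with peaks of the arrest targets coloured and named. The Cdkn1a p53 peak lies near the upper end of its list and the p53 peaks of Ccng1 and Plk2 at lower folds, from 3.86 to 4.72, whereas the H3K4me3 peaks of the group have folds of at most 2.44.

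The p53 peaks of the group differed in q-value, though the Poisson intervals of their fragments overlap. Only the Cdkn1a peak met a q-value of 0.01, and at that limit 0.818% of all protein-coding genes were called. The smallest −log10 q in the K17KO p53 list was 1.04, and 3 of the 4 WT p53 peaks of the arrest targets had a value at or above it, the weaker Plk2 peak being the exception. All 4 exceeded the smallest −log10 p of the K17KO list, 4.07. The q-values of each list come from its own call, so this comparison does not show that such peaks would have been listed in K17KO skin. No test of the genotype difference was possible, because each genotype is a single list.

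The overlap of p53 with H3K4me3 was found at 2 of the 4 WT p53 peaks of the arrest targets, those of Ccng1 and the weaker of Plk2. In the whole WT p53 list 28 of 2909 peaks, or 0.963%, overlapped an H3K4me3 peak. The rule chose the peaks for lying at genes, where H3K4me3 peaks also gather, so the shares are not of like peaks.

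Other genes of the pathway were counted in 3 lists for comparison. Of 30 p53 targets outside arrest, taken with the genes of the p53 loop, 7 had a WT p53 peak, 2 a K17KO p53 peak and 23 an H3K4me3 peak. These are 23.3%, 6.67% and 76.7%, where 6.74%, 3.79% and 23.9% of all protein-coding genes were called. The 7 with a WT p53 peak were Bax (6.70-fold), Phlda3 (6.49), Bbc3 (6.03), Rps27l (4.51), Steap3 (4.20), Trp53inp1 (4.02) and Ephx1 (3.62). The peaks of Bax, Phlda3, Bbc3 and Rps27l met a q-value of 0.01. Those of Steap3, Trp53inp1 and Ephx1, with −log10 q of 1.02, 1.42 and 1.83, did not. The Steap3 peak rested on 7 fragments, with its midpoint 1992 bp outside the gene. The Cdkn1a fold fell between those of the apoptosis genes Bax and Phlda3. Their Poisson intervals of fragments (8.40 to 24.7 at Cdkn1a, 11.4 to 29.7 at Bax and 10.7 to 28.4 at Phlda3) overlap widely. The order of these peaks is therefore not resolved at this depth. The 2 with a K17KO peak were Bax (4.66) and Rps27l (6.53). The highest H3K4me3 folds of that list were at Ephx1 (4.78), Mdm2 (3.40), Eda2r (3.10) and Fas (2.82), above the 2.44 of Btg2. By p the peaks of Ephx1 and Mdm2 ranked 34 and 155 of 5464, ahead of that Btg2 peak at 405. Those of Eda2r and Fas ranked behind it, at 1532 and 3881, on 34 and 20 fragments over 10.3 and 6.45. Bbc3, Phlda3, Trp53inp1 and Ephx1 had the same combination of peaks as Cdkn1a, Ccng1 and Plk2, that is WT p53 and H3K4me3 without K17KO p53.

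Relatives of the arrest targets and further arrest genes had a WT p53 peak at 3 of 28 matched members (10.7%), where 6.74% of all protein-coding genes were called. These were Btg1 (3.82-fold, 402 bp before its start), Gadd45g (3.90-fold, 3452 bp before its start) and Zmat4 (4.30-fold, deep inside the gene). The Zmat4 peak lay 125178 bp from the nearer end of that gene, and the −log10 q at Btg1 and Gadd45g was 0.958 and 1.01. Each of these genes is a paralogue of an arrest target that had no p53 peak of its own, and each peak rested on 7 or 8 fragments. Any pattern among paralogues was not tested. None of the 28 had a K17KO p53 peak and 11 had an H3K4me3 peak, where 3.79% and 23.9% of all protein-coding genes were called. The highest H3K4me3 folds were at Pml (4.24), Cdkn2a (3.46), Plk5 (2.54) and Cdkn1c (1.91). The Cdkn2a peak rested on 7 fragments, and by p the Cdkn2a and Cdkn1c peaks ranked only 4810 and 5034 of 5464. Gadd45g had WT p53 and H3K4me3 peaks and so matched the combination of Cdkn1a.

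The cyclins, kinases and checkpoint genes on which the arrest targets act had p53 peaks at counts near the background. Of 30, only Cdc25c, the phosphatase that starts mitosis, had a WT p53 peak (3.51-fold, 6 fragments over 0.992, inside the gene), and 0 had a K17KO p53 peak, where 6.74% and 3.79% of all protein-coding genes were called. H3K4me3 peaks were at 13 of the 30 (43.3%, against 23.9% of all protein-coding genes), led by Aurka (2.1-fold), Ccnb2 (1.94), Cdc25c (1.94) and Ccne2 (1.92). The shares of the comparison lists with a WT p53 peak were 23.3%, 10.7% and 3.33%, beside 30% of the arrest targets and the 6.74% of all genes. No difference between the lists was tested, and with 10 genes each gene weighs heavily in a share.

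**Figure D5:**
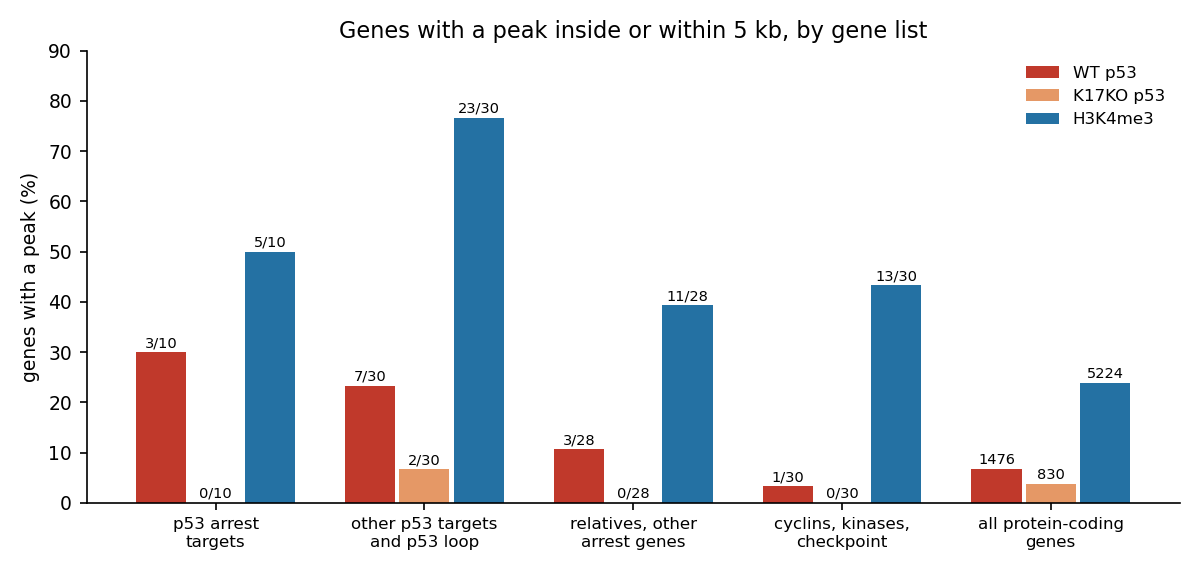
Share of genes (%) with a peak inside the gene or within 5 kb in the WT p53, K17KO p53 and H3K4me3 lists, for the 10 arrest targets, the 3 comparison lists and all 21883 protein-coding genes, with counts above the bars. WT p53 peaks were at 3 of 10 arrest targets and 7 of 30 other p53 targets, and K17KO p53 peaks at 0 of 10 and 2 of 30.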

How the data were processed

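The deposited files are 3 peak lists of 10 columns without header. Bowtie2 2.2.5, SAMtools 1.7, MACS2 2.1.2 and mm10 are named, per the submitters' processing notes, with no role or order. Each peak's fold (a ratio of its pileup to the caller's background), −log10 p, −log10 q and score are the authors' own deposited values, used only within a list. In 100% of peaks the score is the −log10 p times 10, cut to a whole number, and adds nothing to it. No source used here states how libraries were pooled, which control served or where the calls were limited.

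Fragments at a summit were recovered as the whole number n for which (n + 1)/(background + 1) gives the deposited fold and the upper Poisson tail the deposited −log10 p, within 0.001 (100% of peaks in each list). Intervals are exact Poisson at 95%, for counting error only. Genes and starts came from RefSeq tables of GRCm38.p6, which has the coordinates of mm10. The tables give no exons, so exons and introns were not told apart, and Zmat3 had no promoter window. Python 3.11.15, SciPy 1.17.1 and pandas 2.3.3 were used. Recovery and gene assignment were tested on simulated data. The simulated background was a larger part of the fragment number than at the p53 peaks of the arrest targets. At several of their H3K4me3 peaks the background was a larger part than any simulated, so the simulation did not cover these peaks. The members and lists were chosen with earlier results of these data known. Named were all 10 members, their nearest peaks (a few of which are not reported here), and genes of the comparison lists with a p53 peak or among the 4 highest H3K4me3 folds. The Krt genes, the length-limited background and the 20-base motif search were chosen after values were seen. No test was run, because each antibody and genotype is a single list.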

Additional observations from a re-analysis of the deposited data

How the results depend on the processing

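The counts of arrest targets with a peak were repeated with windows of 1 kb and 20 kb, gene ends only, any base or the summit in place of the midpoint, q-value limits of 0.1 and 0.01, and the upper 50% of each list by fold. Arrest targets with a WT p53 peak numbered 3, but 1 (Cdkn1a) at the stricter q-value of 0.01, where the share of all protein-coding genes fell from 6.74% to 0.818%. With a K17KO p53 peak there were 0, but 2 (Ccng1 and Gtse1) with the 20 kb window, where the share of all genes rose from 3.79% to 5.94%. With an H3K4me3 peak there were 5, but 3 (Cdkn1a, Btg2 and Plk2) in the upper 50% by fold, where the share of all genes fell from 23.9% to 10.8%. Arrest target p53 peaks overlapping H3K4me3 numbered 2, also with an overlap of at least 50% of the shorter peak, but 1 when q was limited to 0.1 and 0 when limited to 0.01. That count was not repeated with other windows, peak positions or the upper 50% by fold. The other settings run for each count left it within 1.5 times the main one, and 0 arrest targets had a p53 peak in both genotypes in each setting tried for that count. The 20 kb window was not among those settings, and with it Ccng1 and Gtse1 had a peak in both p53 lists. The share of all genes with a peak in both lists was not computed for that window. A gene with a peak in both lists needs a K17KO p53 peak, which 3.79% of all genes had in the main setting. A count of 0 with both thus lies near these shares and is not a result about these genes. The thresholds removed peaks by construction, and no other cause was tested. Depth limits the p53 peaks, which rest on 7 to 15 fragments. No paired analysis was possible because no list names its replicates.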
